A study of Homo sapiens with 6 samples.

Results

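The SMAD proteins carry signals of the TGF-beta family from the cell surface to the nucleus, and SKI and SKIL hold them back there. The 10 genes described here, SMAD1, SMAD2, SMAD3, SMAD4, SMAD5, SMAD6, SMAD7, SMAD9, SKI and SKIL, were represented by every probe set that the array's annotation assigned to one of them alone, which gave 24 of 22215 tested probe sets and 10 of 11963 measured genes. The genes were chosen by family, with their WZR6 minus parental differences on these same arrays in view. They were compared between WZR6 cells and parental NCI-H1975 cells on 6 oligonucleotide arrays, 3 per group, so n = 3 holds for each group mean below. NCI-H1975 is a human lung adenocarcinoma line with an activating and a resistance mutation in EGFR, the epidermal growth factor receptor. WZR6 is a single clone of it (clone 6), picked from cells kept under increasing WZ4002, an inhibitor of mutant EGFR kinase, and labelled as resistant to that compound, whereas parental cells are labelled as sensitive. Both groups grew exponentially in RPMI with 5% serum. The labels do not say whether WZ4002 was present in the medium at harvest. Nothing in them says that the samples of a group came from separate cultures, so tests measure the spread between these samples, which may be technical. With 1 clone, what belongs to this clone cannot be told apart from what belongs to resistance.

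Ligands such as TGF-beta, activin and the BMPs bring together paired receptor kinases that phosphorylate receptor-regulated SMADs. SMAD2 and SMAD3 answer TGF-beta and activin, and SMAD1, SMAD5 and SMAD9 answer BMPs. These pair with SMAD4 and bind DNA at short elements. SMAD6 and SMAD7 block the receptors and bring ubiquitin ligases of the SMURF family to them, and their genes are themselves induced by the pathway. SKI and SKIL (also called SnoN) bind SMAD complexes on DNA and recruit histone deacetylase corepressors. In epithelial cells the TGF-beta branch is known for growth arrest and for epithelial-mesenchymal transition.

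SMAD6 had the largest difference of the 10 genes, and SMAD7 and SKIL are, like SMAD6, known targets of SMAD complexes, so 250 bases before an annotated start of each are shown. SMAD7 has 3 annotated starts in the table, and the window of the outermost one is printed. They are RefSeq sequences of GRCh38.p14, given 5′ to 3′ on the gene's strand. Capitals mark GTCT or its reverse complement AGAC, the short SMAD binding element. The window of SMAD6 is chr15:66701986-66702235 on the plus strand, that of SMAD7 is chr18:48950966-48951215 on the minus strand, and that of SKIL is chr3:170357465-170357714 on the plus strand.
SMAD6: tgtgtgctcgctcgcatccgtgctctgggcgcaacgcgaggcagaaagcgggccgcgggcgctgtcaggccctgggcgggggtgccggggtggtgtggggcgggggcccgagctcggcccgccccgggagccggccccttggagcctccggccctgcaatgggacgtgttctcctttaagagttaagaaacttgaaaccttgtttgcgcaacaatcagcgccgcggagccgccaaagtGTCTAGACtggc
SMAD7: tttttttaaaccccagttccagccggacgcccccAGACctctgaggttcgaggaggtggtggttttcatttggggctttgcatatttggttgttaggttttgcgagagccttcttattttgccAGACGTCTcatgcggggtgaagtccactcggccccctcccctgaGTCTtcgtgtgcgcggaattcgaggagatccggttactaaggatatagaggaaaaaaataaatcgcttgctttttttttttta
SKIL: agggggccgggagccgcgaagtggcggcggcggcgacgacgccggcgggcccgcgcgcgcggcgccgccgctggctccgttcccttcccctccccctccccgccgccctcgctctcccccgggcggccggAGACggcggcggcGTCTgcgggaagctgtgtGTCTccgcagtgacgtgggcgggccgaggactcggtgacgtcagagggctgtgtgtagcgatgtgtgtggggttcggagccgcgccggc
The SMAD6 window holds the palindrome GTCTAGAC, in which both forms of the short element abut, beginning 12 bases before the start. That palindrome was found in 64 of 35116 such windows over all annotated starts (0.182%), and in 1 of 20 windows of the members, which cover 9 of the 10 genes (SKI is named only). GTCT or AGAC occurred at 2 places in the SMAD6 window, both inside that palindrome, at 4 in the SMAD7 window shown (5 and 1 in its other windows) and at 3 in the SKIL window. It is a common string, present in 77.5% of all windows and in 15 of the 20 member windows. Of the 9 member genes, 8 had it in at least 1 window, and SMAD4 did not. GGCGCC, a GC-rich element bound by SMAD1 and SMAD5, occurred in 16.4% of all windows and in 7 of the 20 member windows. These were windows of SMAD1, SMAD2, SMAD3, SMAD4 and SKIL. Both strands were searched. A match is a description of letters and not of binding.

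All values are log2 intensities or differences of them, and folds are 2 raised to such a difference, with WZR6 over parental unless called lower. A feature is called where its Benjamini-Hochberg adjusted p in the limma fit over all probe sets or all genes is under 0.05. The members were chosen with results of this contrast known, so their calls are given as description and without p-values. The table has no detection calls, and the lower quartile of all log2 values, 5.27, is used here as a mark of a dim signal. Across the array, 41.1% of probe sets and 48% of genes were called. Over all probe sets, pairs of arrays had r of 0.9978 to 0.9983 in the same group and 0.9815 to 0.9826 in different groups. Keratins typical of epithelium were bright in both groups, KRT18 at 14.02 in WZR6 and 14.14 in parental cells. EPCAM, an epithelial adhesion molecule, averaged 6.17 in WZR6 and 12.43 in parental cells. The leukocyte marker PTPRC (4.17 in WZR6 and 4.20 in parental cells) and the fibroblast collagen COL3A1 (4.57 and 4.62) were below the lower quartile in both groups, but each was the single one of the 5 measured markers of its cell type to be so. The fibroblast collagens COL1A2 and COL1A1 averaged 9.73 and 6.60 in WZR6 and 10.29 and 9.60 in parental cells. The leukocyte markers CD14 and ITGB2 averaged 7.49 and 5.49 in WZR6 and 8.45 and 6.86 in parental cells. Of 5 epithelial markers 4 were called lower, and their summed linear intensity was 25987 to 26670 in WZR6 and 40773 to 41592 in parental arrays. All 3 lung adenocarcinoma markers (NKX2-1, FOXA2 and MUC1) were called lower. Of the measured markers of other cells, 2 of 5 for leukocytes were lower, 1 of 5 for fibroblasts was higher and 2 lower, and 1 of 4 for endothelium was higher. The part of these markers in the members' differences was not tested.

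Differences between WZR6 and parental cells were small throughout the SMAD family. Of the 24 probe sets, 10 were called higher in WZR6, 0 were called lower and 14 were not called. Over all probe sets, 21.6% were called higher and 19.5% lower, and nothing is read from the members' count beside those shares. At an unadjusted p under 0.05 the members' counts were again 10 higher and 0 lower. The difference was positive at 20 of the 24 probe sets, against 55.7% of all probe sets, and the median was 0.18, against 0.03 over all probe sets. At 0 of the 24 did it reach 2-fold in either direction, and the range was -0.11 to 0.74. The groups did not overlap at 11 of the 24, against 51.1% of all probe sets. The count called higher was 6 without WZR6 replicate 2, and 5 with a floor, that is, with all lower values raised to the array-wide median log2 value of 7.38.

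**Figure D1:**
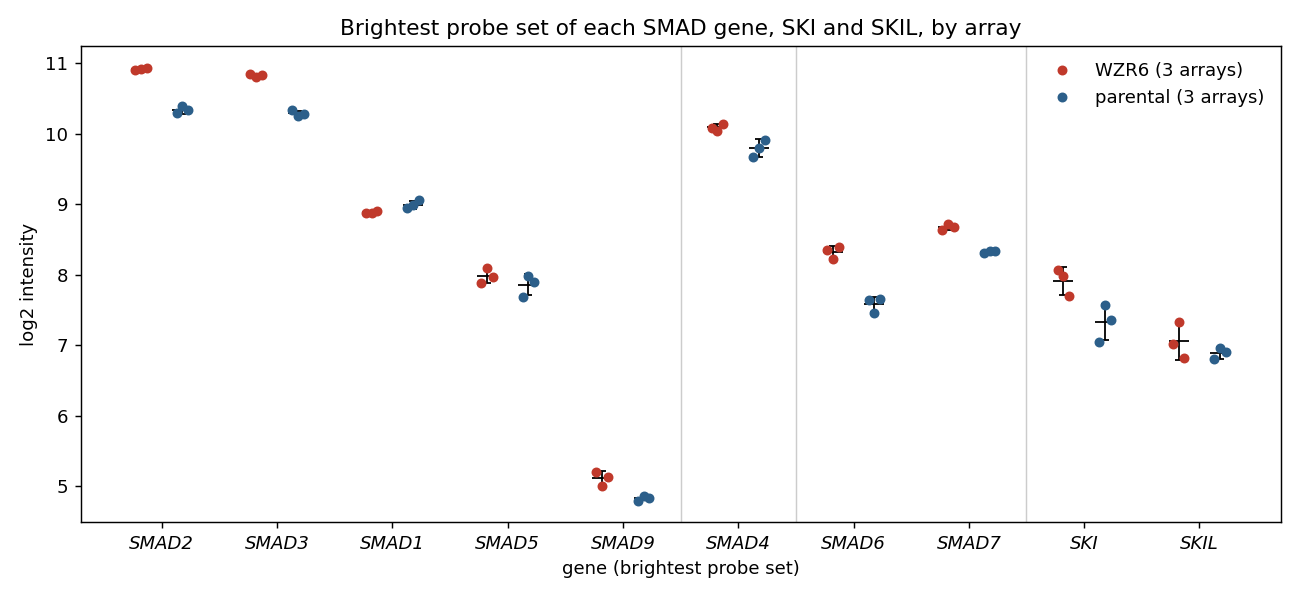
Log2 intensity of the brightest probe set of each gene (y axis) in each array, with 3 WZR6 arrays (red, left) and 3 parental arrays (blue, right) per gene; the horizontal dash and bar are mean and SD, and heights of different genes cannot be compared because each probe set has its own brightness. WZR6 arrays lie above all parental arrays for SMAD2, SMAD3, SMAD4, SMAD6, SMAD7, SMAD9 and SKI, below them for SMAD1, and overlap them for SMAD5 and SKIL.

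With each gene represented by its brightest probe set over all 6 arrays, 7 of 10 genes were called higher (SMAD2, SMAD3, SMAD4, SMAD6, SMAD7, SMAD9 and SKI), 0 lower and 3 not called (SMAD1, SMAD5 and SKIL). The groups did not overlap for 8 of the 10, against 56.3% of all genes. Over all genes 24.5% were called higher and 23.5% lower. The members' median difference was 0.32, against 0.02 over all genes. The other 14 probe sets of these genes had a median of 0.09, and 3 of them were called higher. By these medians the brightest probe sets gave the larger differences. For SMAD1 and SMAD5 the dimmer probe set differed more, by 0.33 and 0.20, against -0.11 and 0.13 at the brightest. When a gene was instead the mean of its probe sets, 5 of 10 genes were called higher, and SMAD4 and SKI, at 0.17 and 0.30, were no longer called.

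SMAD2, a receptor-regulated SMAD of the TGF-beta and activin branch, has 3 probe sets. Its brightest, 203076_s_at, read 10.90, 10.92 and 10.94 in WZR6 replicates 1 to 3, against 10.29, 10.39 and 10.33 in parental replicates 1 to 3. Every WZR6 array was above every parental array, by more than the spread within either group (SD 0.02 in WZR6 and 0.05 in parental cells). The difference was 0.58 ± 0.05 (SE), or 1.50-fold (95% interval 1.38 to 1.62). A second probe set, 203077_s_at, differed by 0.34 ± 0.11, with WZR6 arrays at 9.43, 9.49 and 9.67 and parental arrays at 9.01, 9.16 and 9.40. The groups stood apart there by a narrow gap, and the call did not hold under cyclic loess (0.30), with the floor (0.34) or without any of 5 of the 6 arrays in turn (0.25 to 0.39 among the 5). The third, 203075_at, differed by -0.10 ± 0.06, with means of 9.52 ± 0.08 (SD) in WZR6 and 9.62 ± 0.04 in parental cells, and its groups overlapped. The probe sets of SMAD2 thus disagreed in sign. Without probe sets of the types _s_at and _x_at, which can match several transcripts, SMAD2 rested on the third alone and was not called.

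SMAD3, its partner in the same branch, has 4 probe sets. The brightest, 218284_at, read 10.85, 10.81 and 10.84 in WZR6 arrays, against 10.33, 10.25 and 10.28 in parental arrays. The groups did not overlap, and each was tight (SD 0.02 in WZR6 and 0.04 in parental cells). The difference was 0.54 ± 0.05 (SE), or 1.46-fold (1.35 to 1.58). Probe set 205396_at, much dimmer, differed by 0.36 ± 0.11, with means of 6.11 ± 0.09 (SD) in WZR6 and 5.75 ± 0.22 in parental cells. Its call ended under cyclic loess (0.33), with the floor, and without parental replicate 1 or 2 or WZR6 replicate 2 or 3. The remaining SMAD3 probe sets were not called: 205398_s_at averaged 9.19 ± 0.08 in WZR6 and 9.26 ± 0.09 in parental cells, and 205397_x_at 6.82 ± 0.13 in WZR6 and 6.75 ± 0.07 in parental cells. SMAD3 is therefore higher by its brightest probe set, less firmly by 205396_at, whose call did not hold throughout, and near 0 by the others.

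Of the BMP-branch SMADs, SMAD1 was the single gene of the 10 whose brightest probe set lay lower in WZR6. Probe set 210993_s_at read 8.88, 8.87 and 8.91 in WZR6 arrays, against 8.94, 8.98 and 9.05 in parental arrays. The groups did not overlap, but the gap was small, and the difference of -0.11 ± 0.05 (SE) was not called. In the fit over genes it was called lower under cyclic loess, at -0.15, whereas in the fit over probe sets it was not. It was called lower in both fits when dim probe sets were left out. The other SMAD1 probe set, 208015_at, went the opposite way, by 0.33 ± 0.09, with means of 5.25 ± 0.04 (SD) in WZR6 and 4.92 ± 0.17 in parental cells, both below the lower quartile. That call ended under cyclic loess (0.31), with the floor, and without parental replicate 2, WZR6 replicate 2 or WZR6 replicate 3. No direction can be given for SMAD1.

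SMAD5 was not called at either of its probe sets. Probe set 205188_s_at read 7.89, 8.09 and 7.97 in WZR6 arrays, against 7.69, 7.97 and 7.90 in parental arrays, with 2 WZR6 arrays inside the parental range. Its difference was 0.13 ± 0.09 (SE), with a 95% interval of -0.09 to 0.34, which reaches 1.27-fold at its upper bound. Probe set 205187_at differed by 0.20 ± 0.15, and was called without parental replicate 3 (0.36).

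SMAD9, also known as SMAD8, has 1 probe set, 206320_s_at, which read 5.21, 5.00 and 5.13 in WZR6 arrays, against 4.80, 4.85 and 4.84 in parental arrays. The groups did not overlap, and the difference was 0.28 ± 0.06 (SE), or 1.22-fold (1.09 to 1.35). Both means were below the lower quartile of the array, so the signal is dim, and no difference was left with the floor.

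SMAD4, the partner shared by both branches, has 1 bright and 1 dim probe set. The bright one, 202527_s_at, read 10.08, 10.04 and 10.14 in WZR6 arrays, against 9.67, 9.80 and 9.91 in parental arrays. The WZR6 arrays were all higher, and the parental arrays were more spread (SD 0.05 in WZR6 and 0.12 in parental cells). The difference was 0.29 ± 0.07 (SE), or 1.22-fold (1.09 to 1.38), and in the fit over probe sets the call ended without WZR6 replicate 3 (0.27). The dim one, 202526_at, averaged 4.45 ± 0.09 (SD) in WZR6 and 4.41 ± 0.20 in parental cells, both below the lower quartile. Without _s_at and _x_at probe sets SMAD4 rested on the dim one alone, at 0.04, and was not called.

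**Figure D2:**
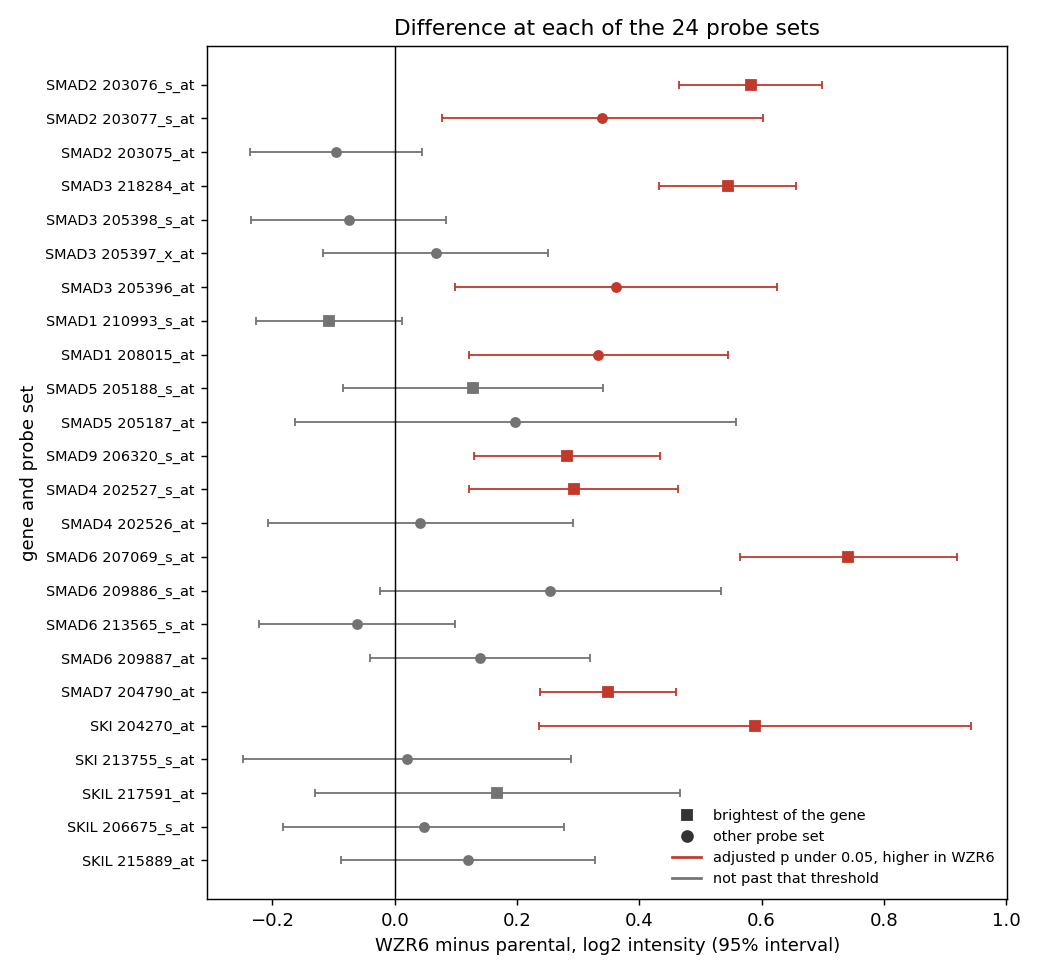
WZR6 minus parental log2 intensity (x axis) with its 95% interval for each of the 24 probe sets (y axis), ordered by gene; squares are the brightest probe set of a gene, circles its other probe sets, red marks those with an adjusted p under 0.05. The 10 red intervals lie right of 0, and SMAD1, SMAD2, SMAD3 and SMAD6 each have 1 probe set on the left of 0.

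The inhibitory SMADs were both higher by their brightest probe set. SMAD6 207069_s_at read 8.35, 8.23 and 8.39 in WZR6 arrays, against 7.63, 7.45 and 7.65 in parental arrays. All WZR6 arrays were above all parental arrays, and the difference of 0.74 ± 0.07 (SE), or 1.67-fold (1.48 to 1.89), was the largest of the 24. The other 3 SMAD6 probe sets were dimmer and not called. Of these, 209886_s_at differed by 0.25 ± 0.12, with means of 5.96 ± 0.14 (SD) in WZR6 and 5.70 ± 0.20 in parental cells. Probe sets 209887_at and 213565_s_at differed by 0.14 ± 0.08 and -0.06 ± 0.07. The SMAD6 difference thus rests on 1 of its 4 probe sets, and SMAD6 was not called when _s_at and _x_at probe sets were left out.

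SMAD7, the inhibitor of both branches, has 1 probe set, 204790_at. It read 8.64, 8.72 and 8.67 in WZR6 arrays, against 8.31, 8.34 and 8.34 in parental arrays. The groups were well separated, and the difference was 0.35 ± 0.05 (SE), or 1.27-fold (1.18 to 1.38). It was called in all the alternatives that were run, with values from 0.31 to 0.39.

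The corepressor SKI was higher by 1 of its 2 probe sets. Probe set 204270_at read 8.07, 7.98 and 7.69 in WZR6 arrays, against 7.05, 7.56 and 7.36 in parental arrays. The groups did not overlap, although both were widely spread (SD 0.20 in WZR6 and 0.26 in parental cells), and the difference was 0.59 ± 0.15 (SE), or 1.50-fold (1.18 to 1.92). Its call ended without WZR6 replicate 1 (0.51) and, in the fit over probe sets, without WZR6 replicate 2 (0.56) or with the floor (0.47). Probe set 213755_s_at averaged 6.72 ± 0.11 (SD) in WZR6 and 6.70 ± 0.21 in parental cells, a difference of 0.02 ± 0.11.

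SKIL, the close relative of SKI that TGF-beta signalling first destroys and then induces, was not called at any of its 3 probe sets. The brightest, 217591_at, read 7.02, 7.33 and 6.82 in WZR6 arrays, against 6.80, 6.96 and 6.91 in parental arrays, and the groups overlapped, with the lowest and the highest value of WZR6 each above its parental counterpart. The difference was 0.17 ± 0.13 (SE), with an interval of -0.13 to 0.47. Probe sets 206675_s_at and 215889_at differed by 0.05 ± 0.10 and 0.12 ± 0.09, the second with both means below the lower quartile. It was called without WZR6 replicate 3 (0.21).

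The member genes lie on 7 chromosomes, and the genes beside them differed in how many were called, against 24.5% higher and 23.5% lower over all genes. For each member the 40 nearest measured genes, 20 on each side in RefSeq order and without other members, were set beside it. Around SKI on chromosome 1, 23 of 40 neighbours were called higher and 0 lower, with a median of 0.29, against 0.59 for SKI itself, which ranked number 9 from the top among the 41. Around SMAD9 on chromosome 13, 23 were higher and 3 lower, with a median of 0.21, and SMAD9 at 0.28 ranked number 18. SMAD2, SMAD7 and SMAD4 lie on chromosome 18 and share 29 of their neighbours, with medians of 0.14, 0.14 and 0.12, and ranked number 2, 8 and 11. Of the 40 neighbours of each, in that order, 16, 15 and 17 were called higher and 3, 3 and 2 lower. SMAD3 and SMAD6 lie together on chromosome 15 and have the same 40 neighbours, with a median of 0.04, 12 higher and 7 lower. In that stretch SMAD6 ranked number 3 and SMAD3 number 6. SMAD1 on chromosome 4, at -0.11, was lower than most of its neighbours, whose median was 0.16, with 16 called higher and 3 lower. Around SMAD5 on chromosome 5, 3 of 40 neighbours were called higher and 16 lower, with a median of -0.09. The neighbours of SKIL on chromosome 3 had 17 called higher and 6 lower, with a median of 0.18, close to SKIL at 0.17. The part of these neighbourhoods in the members' differences was not tested.

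**Figure D3:**
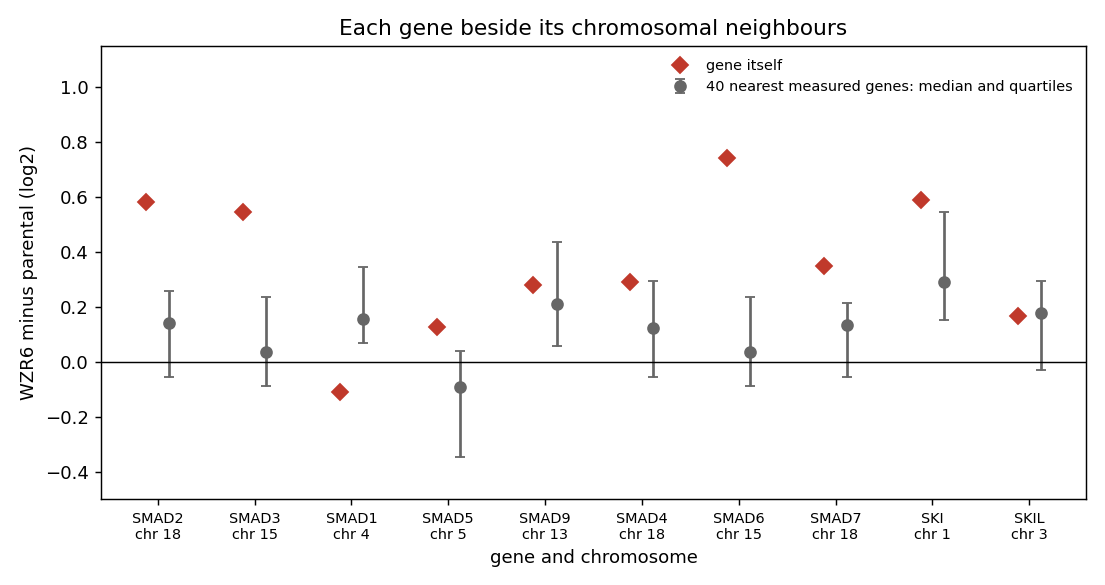
WZR6 minus parental log2 difference (y axis) of each gene by its brightest probe set (red diamond) beside the median and quartiles of its 40 nearest measured genes (grey circle and bar), by gene and chromosome (x axis). SMAD2, SMAD3, SMAD6, SMAD7, SMAD5 and SKI lie above the upper quartile of their neighbours, SMAD1 lies below the lower quartile, and SMAD4, SMAD9 and SKIL lie within the quartiles.

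The genes that act with the SMADs were read from the same gene-level fit. They form 8 lists by role that hold 143 measured genes, each counted once. Of these 32 rose, 51 fell and 60 were not called, and the median was -0.06, against 24.5% higher, 23.5% lower and a median of 0.02 over all genes. No list was tested as a set. The lists were chosen with earlier results of these data known, and the named genes by the size of their differences. The adjusted p-values below come from the fit over all genes and are given as description.

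Ligands of the family split, with 5 of 22 ligands and secreted antagonists higher, 7 lower and 10 not called (median 0.02). INHBA, the subunit of activin A, rose 20.2-fold (difference 4.33 ± 0.06 SE, adjusted p = 1.03e-07 in limma), with means of 10.87 ± 0.09 (SD) in WZR6 and 6.54 ± 0.08 in parental cells. Without _s_at and _x_at probe sets its difference was 1.83, still called. TGFB2, which encodes TGF-beta 2, rose 1.94-fold (adjusted p = 7.84e-05), although it was not called without _s_at and _x_at probe sets, at 0.12. The other 3 probe sets of TGFB2 ranged from 0.12 to 0.98, with 2 called higher. GDF15, a stress-induced family member, fell to 7.61 ± 0.05 in WZR6, against 9.12 ± 0.03 in parental cells (adjusted p = 1.15e-06), but its other probe set differed by -0.05. LTBP2, a matrix protein of the latent TGF-beta binding family, averaged 7.80 ± 0.02 in WZR6 and 9.04 ± 0.07 in parental cells, a difference of -1.24 ± 0.05 (adjusted p = 4.01e-06).

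Among 12 receptors 2 rose, 4 fell and 6 were not called (median -0.06). TGFBR3, the coreceptor betaglycan, rose 2.23-fold (adjusted p = 1.23e-05 in limma), and TGFBR1, the type I receptor for TGF-beta, rose 1.31-fold (adjusted p = 0.0052), a call that ended with the floor. ACVR1B, a type I activin receptor, differed by -1.04 ± 0.06 (SE, adjusted p = 2.49e-05), and ACVR1, a type I receptor of the BMP branch, by -0.47 ± 0.08 (adjusted p = 0.00225). The other 5 probe sets of ACVR1B ranged from -1.01 to 0.08, with 3 called lower. INHBA was thus higher in WZR6 while the receptor gene ACVR1B was lower.

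Anchors and adaptors had 4 of 13 genes higher, 4 lower and 5 not called (median -0.08). ZFYVE9, the membrane anchor SARA that presents SMAD2 and SMAD3 to the receptor, rose 1.65-fold (adjusted p = 7.00e-04 in limma), and its other probe set differed by 0.33, which was not called. BAMBI, a receptor decoy that lacks a kinase domain, rose 2.22-fold (adjusted p = 3.26e-06), with means of 11.03 ± 0.01 (SD) in WZR6 and 9.88 ± 0.05 in parental cells. CAV1, the caveolar coat protein that takes part in receptor uptake, differed by -0.79 ± 0.06 (SE, adjusted p = 5.07e-05). PML, a nuclear body protein, is uncertain, since its brightest probe set differed by -0.49 (called lower) and a dimmer one by 0.26 (called higher).

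Of 19 enzymes that turn the SMADs over, 4 rose, 10 fell and 5 were not called (median -0.20). SMURF2 and SMURF1, the ubiquitin ligases that SMAD7 brings to the receptors, differed by -1.46 ± 0.05 (SE, adjusted p = 2.04e-06 in limma) and -1.02 ± 0.06 (adjusted p = 1.45e-05). SMURF2 averaged 10.17 ± 0.04 (SD) in WZR6 and 11.63 ± 0.06 in parental cells, and SMURF1 8.41 ± 0.07 in WZR6 and 9.43 ± 0.06 in parental cells. The other probe sets of SMURF1 differed by -0.63 and -0.25, with 1 called lower. The related ligase WWP1 and the phosphatase MTMR4, which dephosphorylates receptor-regulated SMADs, differed by -0.51 ± 0.05 (adjusted p = 1.67e-04) and -0.44 ± 0.05 (adjusted p = 4.34e-04). By their brightest probe sets SMAD6 and SMAD7 were thus higher in WZR6 while the SMURF genes were lower. For SMAD6 this rests on 1 of its 4 probe sets, and for SMURF2 on its only probe set.

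Nuclear partners of the SMADs had 7 of 27 genes higher, 5 lower and 15 not called (median 0.00). TGIF2, a homeodomain corepressor of SMAD2 and SMAD3, rose 1.97-fold (adjusted p = 3.43e-05 in limma), FOXO1, a forkhead partner of SMAD complexes, 1.70-fold (adjusted p = 6.71e-04), and ZEB2, a SMAD-binding repressor, 2.25-fold (adjusted p = 0.00573), a call that ended with the floor. The coactivator CREBBP differed by -0.58 ± 0.06 (SE, adjusted p = 3.26e-04), although its other probe set differed by -0.07 and was not called.

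Transcripts that SMAD complexes are known to induce did not move one way. Of 30 transcripts induced by TGF-beta, 7 rose, 13 fell and 10 were not called (median -0.07). COL1A1, a fibrillar collagen chain, differed by -3.00 ± 0.07 (SE, adjusted p = 5.11e-07 in limma), with its other 3 probe sets between -1.27 and 0.08. IGFBP3, a binding protein of insulin-like growth factors, differed by -2.42 ± 0.14 (adjusted p = 2.10e-05), and ANGPTL4, a secreted lipase inhibitor, by -1.96 ± 0.12 (adjusted p = 2.38e-05). TAGLN, an actin-binding protein, rose 2.85-fold (adjusted p = 1.44e-06).

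Of 17 transcripts induced by BMPs, 2 rose, 8 fell and 7 were not called (median -0.18). HEY1, a Notch and BMP target, averaged 6.39 ± 0.11 (SD) in WZR6 and 7.89 ± 0.04 in parental cells (adjusted p = 5.28e-06 in limma), and ID4, an inhibitor of helix-loop-helix factors, differed by -1.03 ± 0.07 (SE, adjusted p = 2.82e-05), with its other probe sets at -0.51 and -0.28. ID3, of the same family as ID4, rose 1.54-fold (adjusted p = 7.44e-05), and BAMBI, given above, is also on this list. Of 10 transcripts that TGF-beta is known to lower, 3 rose (ID3, CCNA2 and MYC), 2 fell and 5 were not called (median -0.02). CDH1, which encodes E-cadherin, fell to 6.32 ± 0.12 in WZR6, against 12.01 ± 0.05 in parental cells (adjusted p = 1.03e-07), a difference of -5.69, while its other probe set differed by -1.04 and was also called lower. CCNA2, a cyclin of S phase and mitosis, rose 1.34-fold (adjusted p = 0.0127), a call that ended with the floor, and the transcription factor MYC 1.20-fold (adjusted p = 0.00213).

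**Figure D4:**
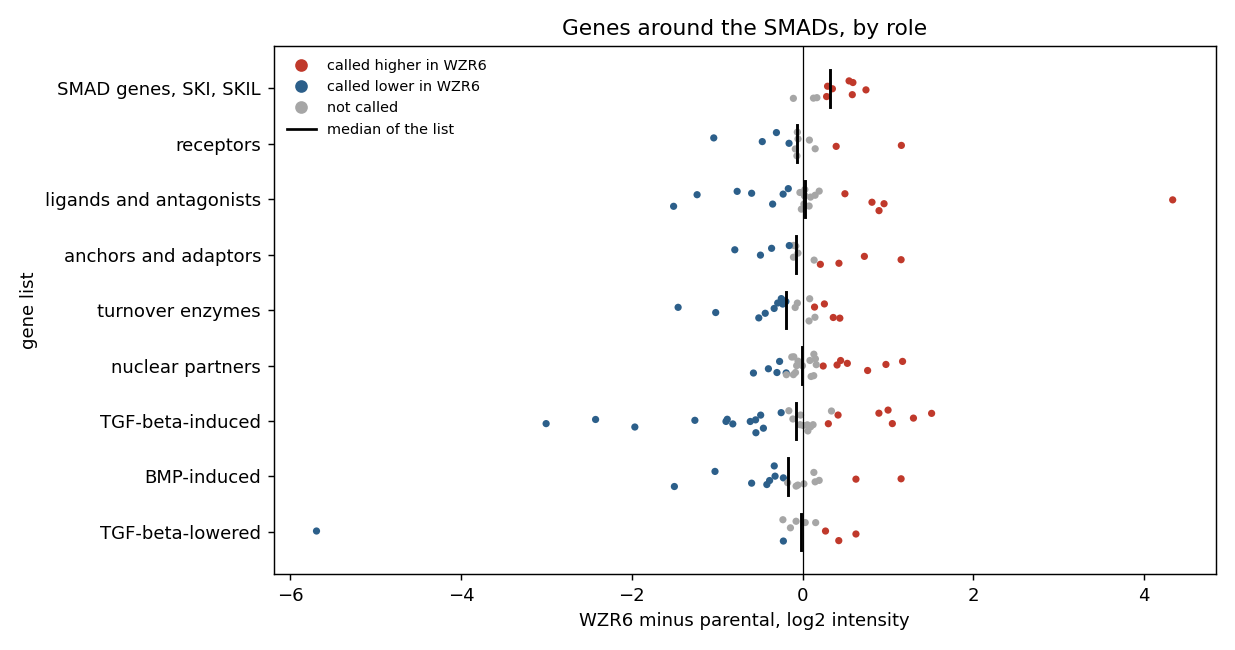
WZR6 minus parental log2 difference (x axis) of the 10 member genes by their brightest probe set and of the genes in the 8 lists by role (y axis); 1 point is 1 gene, red and blue are genes called higher and lower in WZR6, and the black line is the list's median. The member genes lie between -0.11 and 0.74, while INHBA at 4.33 and CDH1 at -5.69 are the outermost points of the lists.

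Over the 6 arrays, the genes whose centred log2 values lay nearest to those of SMAD6, out of 11962 others, were HPD (a tyrosine-degrading dioxygenase), BTBD3 and PLA2G4C (a phospholipase A2), at Euclidean distances of 0.07, 0.09 and 0.11 log2. Their differences were 0.76, 0.73 and 0.78, against 0.74 for SMAD6. HPD was dim, with means of 5.25 in WZR6 and 4.48 in parental cells, both below the lower quartile. All 4 genes share the 6 arrays, and with so few points the likeness is a description.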

How the data were processed

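RNA of 3 WZR6 and 3 parental samples was hybridised to 1 array each. The authors deposited linear intensities, 1 for each probe set on each array, and RMA is the tool named in the submitters' processing notes, without a version. Values ran from 9.87 to 44567. RMA as usually run makes the arrays' distributions alike, so the values are relative to the array, and compresses differences at dim probe sets.

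Values were converted to log2 without a pseudocount, and 62 control probe sets were left out. Of 22215 probe sets, the platform annotation named 1 gene for 19064, several for 1043 and none for 2108. Of the first, 19052 matched the RefSeq table of GRCh38.p14 by Entrez identifier. WZR6 was compared with parental cells by limma 3.58.1 (R 4.3.3, lmFit and eBayes, two-sided) over all probe sets and over 11963 genes, each by its brightest probe set, with Benjamini-Hochberg adjustment. The members and lists were chosen with earlier results of these data known. Named genes were all members, up to 4 called genes with the largest differences and no overlap of groups per list, and the 3 genes most like SMAD6. The gene fit was tested on simulated data with 11963 genes, where it called 64 of 100 shifts of 0.5 log2, with 4.76% of calls false. That simulation shifted only 100 genes by 0.5 and 100 by 1 log2, with independent normal noise. In the data 48% of genes were called, so the share recovered need not hold for them. Plots used matplotlib 3.10.9 (Python 3.11.15). The alternatives were other normalizations, filters, variance models and probe set choices, the replicate number as a block, and leaving out each array. The number of arrays limits the precision of every value.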

Additional observations from a re-analysis of the deposited data

How the results depend on the processing

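The 24 probe sets had 5 called higher with the floor and 5 without _s_at and _x_at probe sets, which leaves fewer to test, and 6 to 11 when 1 array was left out (0 lower throughout). With dim probe sets left out, 1 was called lower, SMAD1 210993_s_at. By gene, 4 were called higher without _s_at and _x_at probe sets, namely SMAD1, SMAD3, SMAD7 and SKI. SMAD2, SMAD4 and SMAD6 were not called in that setting, and SMAD9, with only an _s_at probe set, was not in it. SMAD1 was not called in the main fit. With 1 array left out, 6 to 7 genes were called higher. SMAD1 was the 1 gene called lower under cyclic loess, and 1 was called lower with dim probe sets left out. Without _s_at and _x_at probe sets SMAD1 reversed to 0.33, SMAD2 to -0.10 and PML to 0.26, since each then rests on another probe set. That setting, with fewer features, also lowered calls to 1795 higher and 1692 lower genes, to 2232 higher and 2013 lower probe sets, and to 23 lower genes over all the lists. It left 4 called ligands and antagonists, 7 turnover enzymes, 7 nuclear partners, 10 TGF-beta-induced, 5 BMP-induced and 1 TGF-beta-lowered transcripts, and 6 BMP-induced transcripts were called when dim probe sets were left out. Deviations of same-numbered arrays from their group means had r of -0.01, 0.12 and 0.23. The lowest r was near 0 and the others were positive, so whether the numbers pair the samples cannot be told. The main fit did not pair them. With the replicate block the member counts were 10 probe sets and 7 genes higher and 0 lower. Over all genes, 2946 were then higher and 2783 lower. The table carries no background values, so dim differences cannot be bounded.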
